A study of Mus musculus with 42 samples.

Results

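HCN channels are represented by 2 of the 18194 genes that the Affymetrix MOE430.2 arrays name, Hcn2 and Hcn3, each by 1 of 45101 probe sets. They were found as every probe set that the platform annotation assigns to Hcn2, Hcn3 or Hcn4. Hcn2 is measured by probe set 1421154_at and lies on chromosome 10, from 79716634 to 79736108, in the mouse assembly GRCm38.p6. Hcn3 is measured by probe set 1451023_at and lies on chromosome 3, from 89146775 to 89160284. No probe set carries the symbol Hcn4, a gene on chromosome 9 from 58822949 to 58863175, so Hcn4 is not analysed here. RefSeq lists Hcn3 and Hcn4 as old synonyms of each other. The probe set of Hcn3 was taken by its symbol in the platform annotation, and the Entrez gene identifier of Hcn3 is 15168. Where in the transcript the probes of either set lie is not given in the sources used here, so the values are those of 1 probe set a gene and not of a splice form.

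HCN channels are cation channels that open when the membrane hyperpolarizes and carry the current called Ih. Binding of cyclic AMP to a domain in the intracellular tail makes them open more readily, and the subunits assemble into tetramers. In the cerebellum Ih sets the resting potential and the steadiness of firing of Purkinje cells, and it is present in the axon terminals of basket cells. Hcn2 encodes a widely expressed subunit that responds strongly to cyclic AMP, Hcn3 encodes a subunit that opens slowly and responds little to cyclic AMP, and Hcn4 encodes the subunit best known from the pacemaker of the heart.

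Expression was measured in Purkinje cells, whose axons are the sole output of the cerebellar cortex, and in the Stellate/Basket cells that inhibit them from the molecular layer. Both were dissociated from cerebellar slices of Gad67-GFP BAC transgenic mice (G42; CB6-Tg(Gad1-EGFP)G42Zjh/J), all labelled male, and picked by hand for green fluorescence and soma size. The transgene marks inhibitory neurons of more than 1 type, so soma size had to separate them. Each Purkinje age has 3 arrays at P3, P7 and P14, where P stands for postnatal day, and 4 arrays at the later ages P21, P28, P35 and P56. The Stellate/Basket ages are P14 and P28 with 4 arrays, P21 with 3, and P35 and P56 with 2. The labels call the replicates biological, and how many mice or cells went into 1 array is not given in the sources used here.

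Expression was deposited as 1 log2 value per probe set and array, and values ran from 3.94 to 14.6 over the 40 arrays, with array medians between 5.91 and 6.16. They come without detection calls, so a value near the array median cannot be placed above or below background. Differences are log2, Purkinje minus Stellate/Basket or later minus earlier age, from 1 limma fit over 12 groups and 32918 probe sets, with p-values adjusted by the Benjamini-Hochberg method over those probe sets. A probe set passed when its adjusted p was under 0.05 and was called when its log2 difference was also at least 1 in size. In the F tests over ages, the range of the group means took the place of the difference. Both HCN probe sets were among those tested.

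The sort was checked against marker genes of both cell types. The mean log2 over 8 Purkinje markers was 8.40 ± 1.35 in Purkinje arrays at P3 (SD, n = 3) and 10.2 ± 0.57 at P7 (SD, n = 3), and its group means lay between 12.8 and 13.1 from P14 on. The mean over 8 markers of molecular layer interneurons was 9.69 at P3, 9.63 at P7 and 5.57 to 5.70 from P14 on in the same arrays. In Stellate/Basket arrays the interneuron markers averaged between 9.57 and 10.5 from P14 to P35 and 6.09 at P56, where the Purkinje markers reached 11.9 and the markers of astrocytes and Bergmann glia 10.6. Purkinje arrays at P3 and P7 and Stellate/Basket arrays at P56 therefore stood apart from their labels. The Hcn3 age tests and the averaged cell type differences of both HCN genes are given with and without them. The Purkinje step from P7 to P14, the Hcn2 age tests and the averaged differences of other genes are given with them only. At P14 the level of Xist, the RNA of the inactive X chromosome, ran from 6.47 to 6.59 in Purkinje arrays and from 12.8 to 12.9 in Stellate/Basket arrays, although all are labelled male. Apparent sex and cell type therefore cannot be told apart at P14, which is also the earlier age of several changes given below. Xist levels of the other groups are not listed here.

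**Figure D1:**
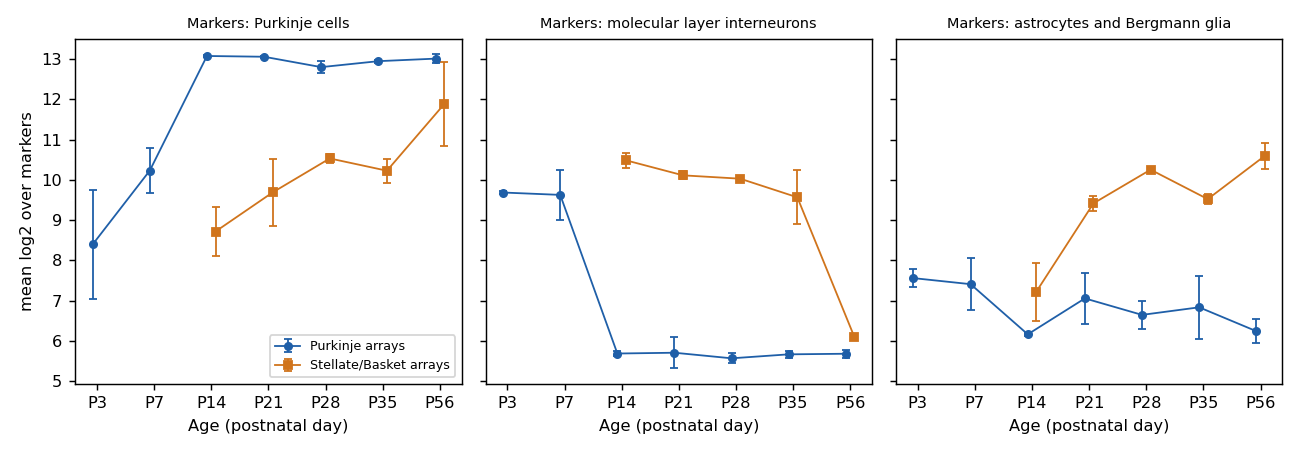
Mean log2 level of 3 marker lists (8 Purkinje, 8 molecular layer interneuron and 10 astrocyte and Bergmann glia genes) against age, with Purkinje arrays in blue and Stellate/Basket arrays in orange, and bars giving the SD over arrays. Interneuron markers were at 9.69 and 9.63 in Purkinje arrays at P3 and P7, and at 6.09 in Stellate/Basket arrays at P56.

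Hcn3 was the HCN gene whose level moved with age. Its group means spanned 1.41 on the log2 scale, with the highest in Purkinje cells at P7 and the lowest in Purkinje cells at P56. In Purkinje cells the age test passed and was called over all 7 ages. Without P3 and P7, which stood apart from their labels, it passed and was not called. In both cell types the means of the later ages lay below P14.

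In Purkinje arrays Hcn3 read 8.41, 8.13 and 8.18 at P3, which averages 8.24 ± 0.15 (SD, n = 3). At P7 it read 8.38, 8.23 and 8.50, with a mean of 8.37 ± 0.13 (SD, n = 3). At P14 it read 7.75, 7.87 and 7.62, with a mean of 7.74 ± 0.12 (SD, n = 3). Every array at P14 thus lay below every array at P3 and P7. How many of all probe sets separate in this way was not counted, for these ages or for other groups below whose arrays do not overlap. Such separation is given as a description only. At P21 the values were 7.40, 7.55, 7.71 and 7.83, with a mean of 7.63 ± 0.19 (SD, n = 4). At P28 they were 6.90, 7.37, 7.32 and 7.22, with a mean of 7.20 ± 0.21 (SD, n = 4). The arrays at P28 all lay below those at P14 and at P21. At P35 Hcn3 read 7.55, 7.28, 7.46 and 7.49, with a mean of 7.45 ± 0.11 (SD, n = 4). At P56 it read 6.73, 7.56, 6.78 and 6.77, with a mean of 6.96 ± 0.40 (SD, n = 4). At P56, 3 of the 4 arrays lay below every other Purkinje array, and replicate 2 was at the level of the P35 arrays.

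In Stellate/Basket arrays Hcn3 read 7.85, 8.24, 8.24 and 8.46 at P14, with a mean of 8.20 ± 0.25 (SD, n = 4). At P21 it read 7.80, 7.59 and 8.10, with a mean of 7.83 ± 0.26 (SD, n = 3). At P28 it read 7.17, 7.51, 7.73 and 7.73, with a mean of 7.53 ± 0.26 (SD, n = 4). The highest level was again at the youngest age sampled, and the P28 arrays did not reach the P14 arrays. At P35 the values were 7.60 and 7.57, with a mean of 7.59 ± 0.02 (SD, n = 2). At P56 they were 6.96 and 7.98, with a mean of 7.47 ± 0.72 (SD, n = 2), so the pair at P56 differed by more than the group means of any 2 Stellate/Basket ages.

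Hcn3 lay between 0.81 and 2.45 above the median of its array in every array. Ordered from high to low, its group means ran Purkinje P7, Purkinje P3, Stellate/Basket P14, Stellate/Basket P21, Purkinje P14, Purkinje P21, Stellate/Basket P35, Stellate/Basket P28, Stellate/Basket P56, Purkinje P35, Purkinje P28 and Purkinje P56. The arrays of all 11 pairs of neighbours in that order overlapped. The gap exceeded the larger SD of the pair in 2 of them, 0.37 between Stellate/Basket P14 and P21 and 0.25 between Purkinje P35 and P28.

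**Figure D2:**
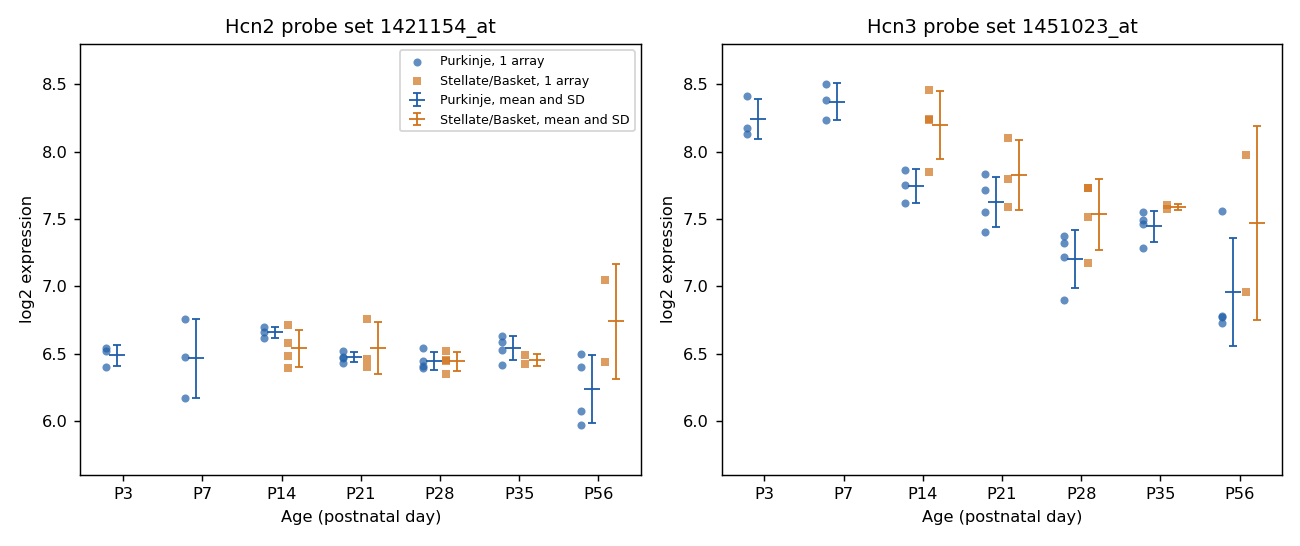
Log2 expression of Hcn2 and Hcn3 against age, with 1 point per array, Purkinje arrays in blue and Stellate/Basket arrays in orange, and crosses with bars giving each group's mean and SD. Hcn3 group means run between 8.37 in Purkinje cells at P7 and 6.96 in Purkinje cells at P56, while all Hcn2 arrays lie between 5.97 and 7.04.

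Over the 7 Purkinje ages the group means of Hcn3 differed (limma F test, range 1.41, adjusted p = 1.96e-06). Of all probe sets, 24.4% were called in this test and 54.1% passed. Without P3 and P7, over P14 to P56, the range was 0.79 and the test still passed (adjusted p = 0.0113). That range is short of the size for a call, so the call rests on the P3 and P7 arrays.

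Between P7 and P14 Hcn3 fell in Purkinje cells, with a log2 difference of -0.63 ± 0.21 (SE, 95% interval -1.06 to -0.20, limma adjusted p = 0.0333). The arrays of the 2 ages did not overlap. The difference was not called, beside 11.2% of all probe sets called and 18.5% passing in this step. Across the same step 6 of 8 Purkinje markers were called higher and 8 of 8 interneuron markers were called lower. So were 4 of 6 markers of Golgi and unipolar brush cells (median -2.21), 4 of 10 of astrocytes and Bergmann glia and 2 of 5 of granule cells. Their part in the Hcn3 difference was not tested. In such pooled cells, fewer cells of a type and less RNA per cell cannot be told apart. It no longer passed without any 1 of P7 replicates 1 and 3 and P14 replicates 1 and 3 (-0.63 to -0.56, adjusted p between 0.0758 and 0.124), under quantile normalization (-0.54, adjusted p = 0.13) or with Xist level as a covariate (-0.66, adjusted p = 0.0524).

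Between P14 and P56, with Purkinje marker means of 13.0 at P56 and 13.1 at P14, Hcn3 was lower at P56, with a difference of -0.79 ± 0.20 (SE, 95% interval -1.19 to -0.38, limma adjusted p = 0.00805). That is 1.72-fold lower at P56, short of the size for a call. Of all probe sets 1.76% were called in this comparison and 12.9% passed. The arrays of the 2 ages did not overlap, and the difference passed in every alternative and with each array left out, between -0.99 and -0.67. The 3 P56 arrays with low Hcn3 have the lowest medians of all 40 arrays, between 5.91 and 5.95, and replicate 2 has 6.03. With each array centred on its median the difference was -0.67 (adjusted p = 0.0184). At P28 and P35 the differences from P14 were -0.54 ± 0.20 (adjusted p = 0.0882) and -0.30 ± 0.20 (adjusted p = 0.615), and neither passed, beside 7.42% and 0.817% of all probe sets passing and 1.52% and 0.431% called. The arrays at P28 did not overlap those at P14. Both steps use the same 3 arrays at P14 as the change to P56, so the 3 differences are not separate measurements.

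Over the whole span, between P3 and P56, Hcn3 was called lower in Purkinje cells, with a difference of -1.28 ± 0.20 (SE, 95% interval -1.69 to -0.88, limma adjusted p = 4.60e-06). In this comparison 15.2% of all probe sets were called and 32.7% passed. It rests on the P3 arrays, in which interneuron markers were high, and the change from P14 gives the value without them.

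In Stellate/Basket cells the group means of Hcn3 also differed over the 5 ages (limma F test, range 0.73, adjusted p = 0.0192), beside 37.6% of all probe sets passing and 21.4% called. Without P56 the range was 0.66 and it still passed (adjusted p = 0.0435). It did not pass with P56 under quantile normalization (adjusted p = 0.134), in a fit of these groups alone (adjusted p = 0.125) or without any 1 of P14 replicates 2, 3 and 4 (adjusted p between 0.0511 and 0.0835). At P28 Hcn3 was lower than at P14, with a difference of -0.66 ± 0.18 (SE, 95% interval -1.03 to -0.29, limma adjusted p = 0.0128), with no overlap of the arrays, beside 13.6% of probe sets passing and 4.81% called. It no longer passed without P14 replicate 4 (adjusted p = 0.0559) or without P28 replicate 1 (-0.54, adjusted p = 0.0655). At P35 the difference from P14 was -0.61 ± 0.22 (SE, 95% interval -1.06 to -0.15, adjusted p = 0.0767), also without overlap, and it did not pass, beside 11.2% of probe sets passing and 5.17% called. It did pass with centring (-0.65, adjusted p = 0.0435) and without P14 replicate 1 (-0.72, adjusted p = 0.0474). With all 42 columns it passed too (adjusted p = 0.0226), but the added P35 column is the mean of the other P35 arrays and no new sample. At P56 it was -0.73 ± 0.22 (adjusted p = 0.0121), beside 33.6% passing and 16.7% called, with overlapping arrays. It no longer passed without Stellate/Basket P56 replicate 1 (-0.22, adjusted p = 0.539), under quantile normalization (-0.44, adjusted p = 0.19) or in a fit of the groups compared alone (adjusted p = 0.164). Markers moved over these ages too. At P35, against P14, 8 of 10 astrocyte and Bergmann glia markers and 4 of 8 Purkinje markers were called higher and 3 of 8 interneuron markers lower. At P56, against P14, 9 of 10, 6 of 8 and 8 of 8 were, with a median of -4.44 over the interneuron markers, and their part in the Hcn3 difference was not tested.

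The change from P14 to P35 was compared between the cell types directly. The Purkinje change minus the Stellate/Basket change was 0.31 ± 0.30 for Hcn3 (SE, 95% interval -0.30 to 0.92, limma adjusted p = 0.68). For Hcn2 it was -0.03 ± 0.20 (adjusted p = 0.963). Neither passed, beside 2.05% of probe sets called and 2.65% passing, and the interval for Hcn3 leaves room for a difference of almost 1 in log2.

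Averaged over the 5 shared ages, Hcn3 was lower in Purkinje than in Stellate/Basket cells, with a difference of -0.33 ± 0.09 (SE, 95% interval -0.52 to -0.14, limma adjusted p = 0.00338). That is 1.26-fold lower in Purkinje cells, so it passed and was not called, beside 10.3% of all probe sets called and 52.4% passing. More than 1 probe set in 2 passed this comparison. Without P56 the difference was -0.28 (adjusted p = 0.0179), with Xist level as a covariate -0.35 (adjusted p = 0.0203), and it passed with each array left out, between -0.43 and -0.23. Markers differed between the same arrays, with 7 of 8 interneuron markers and 8 of 10 astrocyte and Bergmann glia markers called lower in Purkinje cells, and their part in the difference was not tested.

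At no single age did the Hcn3 difference between the cell types pass. It was -0.45 ± 0.20 at P14 (adjusted p = 0.106, with 12.1% of all probe sets called and 21.8% passing), -0.20 ± 0.20 at P21 (adjusted p = 0.491, 12.2% called and 24.7% passing) and -0.33 ± 0.18 at P28 (adjusted p = 0.141, 15.2% called and 43.4% passing). At P35 it was -0.14 ± 0.22 (adjusted p = 0.726, 9.85% called and 17.1% passing) and at P56 -0.51 ± 0.22 (adjusted p = 0.0636, 18.4% called and 42.7% passing). The sign was the same at all 5 ages, and the 95% intervals at P21, P28 and P35 included 0. At P14 the difference passed in a fit of the groups compared alone (adjusted p = 0.0466). At P35 both Stellate/Basket arrays lay above all 4 Purkinje arrays, but the difference was small and how many of all probe sets separate in this way was not counted. The value at P56 rested on single arrays. It was -1.02 (adjusted p = 0.00148) without Stellate/Basket P56 replicate 1, -0.0026 without Stellate/Basket P56 replicate 3, and -0.71 (adjusted p = 0.00672) without Purkinje P56 replicate 2.

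**Figure D3:**
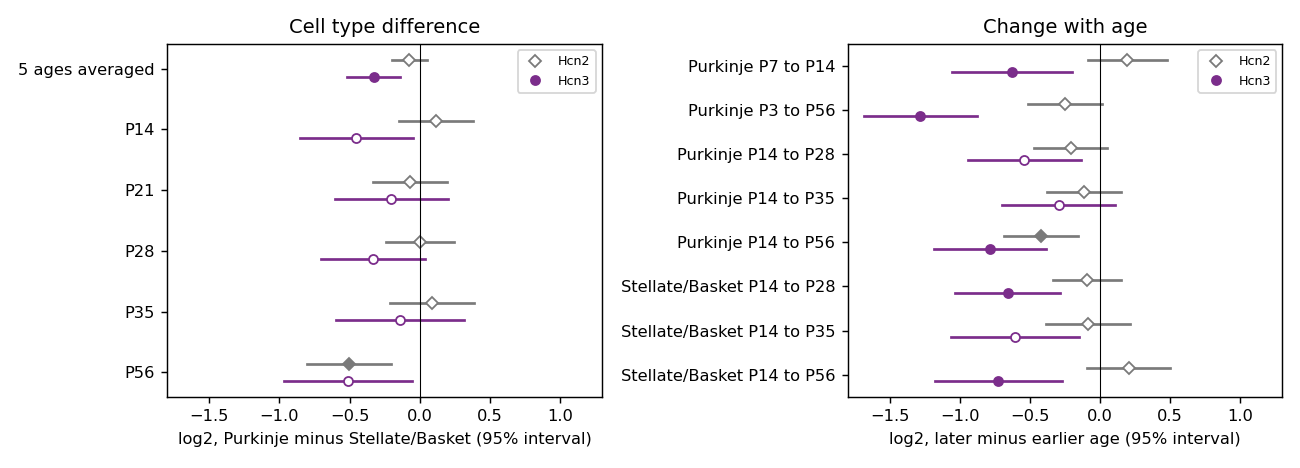
Log2 differences of Hcn2 (grey diamonds) and Hcn3 (purple circles) with 95% intervals, on the left Purkinje minus Stellate/Basket and on the right the later minus the earlier age, with filled symbols where the limma adjusted p is under 0.05. All Hcn3 points lie below 0, and Hcn2 points lie on both sides of it.

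Hcn2 lay near the middle of each array. Its 40 values ran from 5.97 to 7.04, between 0.06 below and 1.0 above the median of the array, and its group means spanned 0.51. Whether values this close to the array median stand above background cannot be read from the files. All 11 pairs of neighbours in the order of its group means overlapped, and only the gap of 0.12 between Purkinje P14 and Purkinje P35 exceeded the larger SD of the pair.

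In Purkinje arrays Hcn2 averaged 6.49 ± 0.08 at P3 and 6.47 ± 0.29 at P7 (SD, n = 3 each). At P14 it read 6.70, 6.66 and 6.62, with a mean of 6.66 ± 0.04 (SD, n = 3). It averaged 6.47 ± 0.04 at P21, 6.45 ± 0.07 at P28 and 6.54 ± 0.09 at P35 (SD, n = 4 each). The P14 arrays were the highest group of the Purkinje series by mean and among the tightest. At P56 Hcn2 read 6.40, 5.97, 6.50 and 6.07, with a mean of 6.24 ± 0.25 (SD, n = 4). In Stellate/Basket arrays it averaged 6.54 ± 0.14 at P14 (SD, n = 4), 6.54 ± 0.19 at P21 (SD, n = 3), 6.44 ± 0.07 at P28 (SD, n = 4) and 6.45 ± 0.05 at P35 (SD, n = 2). At P56 the 2 Stellate/Basket arrays read 7.04 and 6.44, and the first of them is the highest Hcn2 value of all arrays.

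The age test of Hcn2 did not pass in Purkinje cells (limma F test, range 0.42, adjusted p = 0.135) or in Stellate/Basket cells (range 0.30, adjusted p = 0.452). Averaged over the 5 shared ages the difference between the cell types was -0.07 ± 0.06 (SE, 95% interval -0.20 to 0.05, adjusted p = 0.318), so a difference beyond 0.20 in size lies outside the interval. It did not pass at P14 (0.12, adjusted p = 0.599), P21 (-0.07, adjusted p = 0.751), P28 (0.00, adjusted p = 0.987) or P35 (0.09, adjusted p = 0.746).

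Both Hcn2 differences that passed rest on P56. In Purkinje cells Hcn2 was lower at P56 than at P14, with a difference of -0.42 ± 0.13 (SE, 95% interval -0.69 to -0.16, limma adjusted p = 0.0279), and the arrays did not overlap. It no longer passed without any 1 of the P14 arrays or of P56 replicates 2 and 4 (-0.44 to -0.33, adjusted p between 0.0706 and 0.0999). Nor did it under quantile normalization (-0.33, adjusted p = 0.126), with each array centred on its median (-0.31, adjusted p = 0.158) or in a fit of the groups compared alone (adjusted p = 0.0904). At P56 Hcn2 was lower in Purkinje than in Stellate/Basket cells, with a difference of -0.51 ± 0.15 (SE, 95% interval -0.80 to -0.21, limma adjusted p = 0.00637). That difference no longer passed with centring (-0.36, adjusted p = 0.0692), in a fit of the groups compared alone (adjusted p = 0.198) or without Stellate/Basket P56 replicate 1 (-0.20, adjusted p = 0.338). In Purkinje cells Hcn2 did not differ past the threshold between P7 and P14 (0.19, adjusted p = 0.399) or between P3 and P56 (-0.25, adjusted p = 0.138). In Stellate/Basket cells it did not between P14 and P28 (-0.10, adjusted p = 0.677), P35 (-0.09, adjusted p = 0.789) or P56 (0.20, adjusted p = 0.3). The value at P56 was 0.50 (adjusted p = 0.031) without Stellate/Basket P56 replicate 3 and -0.10 (adjusted p = 0.689) without replicate 1.

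Genes whose group means followed those of Hcn3 most closely were named from the probe sets with a span of group means of at least 1, by Pearson's r over the 12 group means. They were Stx1a, a syntaxin of the synaptic vesicle fusion machinery (r = 0.964), Dlk2, a membrane protein of the Delta family (r = 0.948), Wnt4, a secreted Wnt ligand (r = 0.948), Pdzd4, a PDZ domain protein (r = 0.945), and Pou6f1, a POU domain transcription factor (r = 0.944). They are the closest of 14678 probe sets, chosen for a high r, and the values of each group mean come from the same arrays and amplification. The 12 groups include Purkinje P3 and P7 and Stellate/Basket P56, which stood apart from their labels. No r was computed without these groups, and the part of the cell mix in these r values was not tested. Stx1a averaged 6.89 in Purkinje cells at P56 and 11.0 at P3, a wider span than that of Hcn3. The probe sets of Stx1a and Dlk2 are of a kind that can bind more than 1 transcript. Hcn2 spanned less than 1, and no gene was named for it.

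The genes around HCN channels were taken from 5 lists, with 71 of 80 genes tested, each by 1 probe set. Proteins that bind HCN channels or regulate their traffic and state gave 15 tested genes. In the difference averaged over the 5 ages 1 of these was called higher and 2 lower in Purkinje cells, with a median of -0.01 against 0.01 over all probe sets, of which 5.58% were called higher and 4.7% lower. Nedd4l, a ubiquitin ligase, was lower (-1.40), as was Tamalin, a scaffold protein (-1.39), and the tyrosine phosphatase Ptpra was higher (1.05). Between P7 and P14 in Purkinje cells 1 was called higher and 3 lower, beside 5.09% and 6.15% of all probe sets, with Nedd4l at -3.12, the actin crosslinker Flna at -1.36 and Tamalin at -1.12, and Ptpra at 1.15. The probe set of Nedd4l averaged 4.94 at P14, below the array medians, so the size of its difference is uncertain, while 3 of its 5 other probe sets were called lower too. Neither of 2 other probe sets of Tamalin, nor the other of Ptpra, was called in these comparisons.

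Enzymes that make or break down cyclic nucleotides act on the ligands of the HCN tail, and neither HCN probe set was called beside them. Of 15 tested cyclases and nitric oxide synthases 1 was called higher and 4 lower in Purkinje cells over the 5 ages, with a median of -0.17, beside the 5.58% of all probe sets called higher and 4.7% called lower. Nos1, the neuronal nitric oxide synthase, was lower at -2.08, and the adenylyl cyclases Adcy7 and Adcy6 at -2.0 and -1.60, while Gucy1b1, a subunit of soluble guanylyl cyclase, was higher by 1.14. These values are of 1 probe set a gene, and none of 3 other tested probe sets of Nos1, of 2 of Adcy7 or of 1 of Gucy1b1 was called. Of 17 tested phosphodiesterases 5 were called higher and 1 lower, with a median of 0.32, beside the same shares. Pde5a and Pde9a, which hydrolyse cyclic GMP, were higher by 3.83 and 3.19, and Pde1c and Pde10a, which hydrolyse both cyclic nucleotides, by 2.83 and 1.19. Both other probe sets of Pde5a were called higher too, and none of 4 of Pde1c or of 4 of Pde10a was. Between P7 and P14 in Purkinje cells, where 5.09% of all probe sets were called higher and 6.15% lower, 1 gene of the cyclase and synthase list was called higher and 4 lower, among them Adcy2 at -2.28, Adcy7 at -1.97 and Adcy6 at -1.46, with Gucy1a2 at 1.24. In the same step 3 phosphodiesterases were called higher, namely Pde5a at 3.58, Pde9a at 2.24 and Pde7b, specific for cyclic AMP, at 2.08, and 2 lower, among them Pde3b at -1.56. None of 2 other tested probe sets of Pde7b or of 2 of Adcy7 was called in this step, while both of Pde5a were called higher. Adcy7 at 5.86 in P14 Purkinje cells and Pde1c at 5.95 in Stellate/Basket cells over the 5 ages lay near or below the array medians, so the sizes of their differences are uncertain. The markers that moved in this step are given above, and their part in these differences was not tested.

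Other channels with a cyclic nucleotide-binding domain are the relatives of HCN channels. None of 10 tested was called in limma's test averaged over the 5 ages, where 8 passed and 9 had an unadjusted p under 0.05, beside 10.3% of all probe sets called and 52.4% passing. Between P7 and P14 in Purkinje cells none was called either, with 1 passing and 4 under 0.05 unadjusted, beside 11.2% called and 18.5% passing. At these shares 0 of 10 called is no result about the list. Kcnh2, of the ERG potassium channels, passed the adjusted p for the cell type difference at 0.33 (adjusted p = 0.0214), and Kcnh1, of the EAG channels, at -0.24 (adjusted p = 0.0024). Between P14 and P56 in Purkinje cells Kcnh3, of the ELK channels, was lower at -0.78 (adjusted p = 5.71e-04) and Cngb1, a subunit of cyclic nucleotide-gated channels, at -0.46 (adjusted p = 0.00571). Both passed and neither was called, as for Hcn3 in that comparison.

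Other channels tied to spontaneous firing made up the last list. Of 14 tested 4 were called higher and 2 lower in Purkinje cells over the 5 ages, with a median of 0.47, beside the 5.58% of all probe sets called higher and 4.7% called lower. Scn4b, the sodium channel beta subunit linked to resurgent current, was higher by 3.78, the T-type calcium channel Cacna1g by 2.10 and the BK channel subunit Kcnmb4 by 2.05, while the sodium channel Scn2a1 was lower at -2.63. Only 1 of 3 other tested probe sets of Scn2a1 was called lower too. Between P7 and P14 in Purkinje cells 8 were called higher and 3 lower, with a median of 1.20 against 0.06 over all probe sets, of which 5.09% were called higher and 6.15% lower. Purkinje, interneuron and Golgi cell markers moved in the same step, with the counts given above, and their part in these differences was not tested. Scn4b was higher by 5.17 at P14, against a P7 level of 5.69 that lies below the array medians, Cacna1g by 2.72 and the potassium channel Kcna1 by 2.66, and Scn2a1 was lower at -3.30. Hcn3 at -0.63 and Hcn2 at 0.19 in that step lie well inside this spread. Of 3 other tested probe sets of Scn2a1 1 was called lower in the step, and of 3 of Kcna1 2 were called higher.

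**Figure D4:**
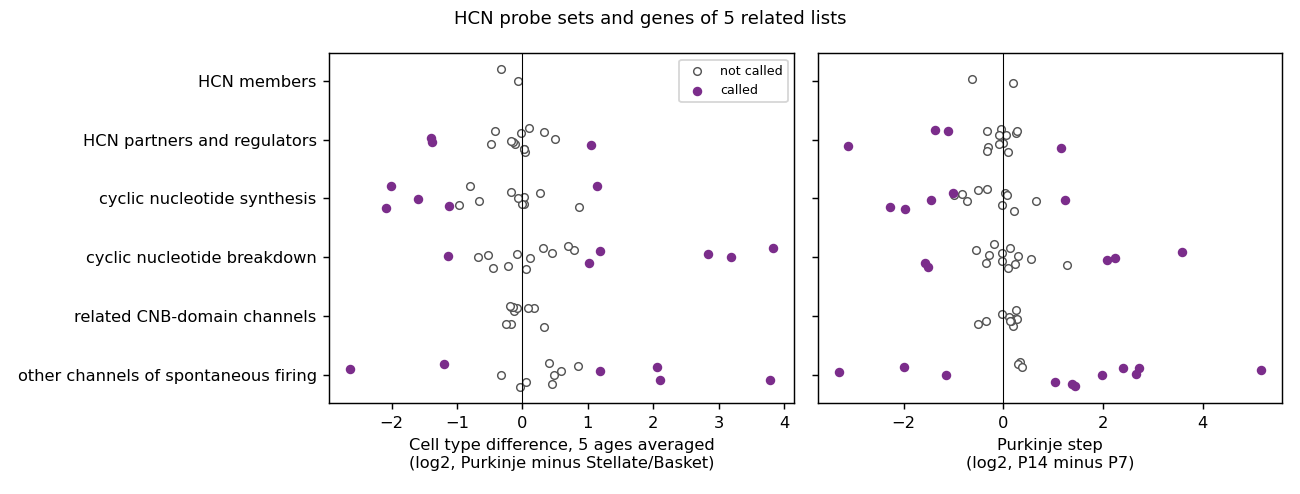
Log2 differences of the 2 HCN probe sets and of 71 genes in 5 related lists, on the left Purkinje minus Stellate/Basket cells averaged over 5 ages and on the right P14 minus P7 in Purkinje cells, with filled points for called genes and vertical scatter added to part the points. Neither HCN probe set is called, none of the 10 related cyclic nucleotide-binding-domain (CNB) channels is, and firing channels reach 5.17.

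From P14 to P56 in Purkinje cells none of the 71 tested genes of the 5 lists was called by limma, while 9 passed the adjusted p and 15 had an unadjusted p under 0.05. Of all probe sets 1.76% were called and 12.9% passed in this comparison, so these counts lie near the background. Hcn2 and Hcn3 are likewise among those that passed and were not called. From P14 to P35 in Stellate/Basket cells 3 of the 71 were called, beside 5.17% of all probe sets, with Pde5a higher at P35 by 1.89, Scn4b higher by 1.64 and Pde7a lower at -1.70. Scn4b averaged 5.53 at P14, below the array medians, and none of 6 other probe sets of Pde7a was called. Purkinje markers were higher at P35 in the same arrays, with 4 of 8 called, and their part in the Pde5a and Scn4b differences was not tested.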

How the data were processed

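Log2 expression values were deposited for each probe set of the Affymetrix MOE430.2 arrays. R 2.9.1 and GCRMA are named in the submitters' processing notes, without their role or order. Per the labels' protocols, polyadenylated RNA was amplified in 2 rounds before labelling. Of 42 columns, 2 equal the mean of 2 other columns of their group within 1e-08 and were left out, replicate 3 of Stellate/Basket P35 and replicate 2 of P56. GEO's platform annotation gave 34958 probe sets 1 gene symbol, 932 several and 9211 none. The 32918 with 1 symbol that exceeded a log2 value of 5 in 3 or more arrays were tested. The tool was limma 3.58.1 under R 4.3.3, and the model held the 12 group means. Python 3.11.15 and matplotlib 3.10.9 made the figures.

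The members, the gene lists and the comparisons were chosen with earlier results of these data known. For a list gene with several probe sets, the one of highest mean was used. Up to 4 called genes of each list with the largest differences were named in each comparison, or its 2 largest differences where fewer than 2 were called. The 5 genes most like a member in group means were named where the member spanned at least 1. The number of arrays limits the precision. The p-values measure the spread between the samples labelled as biological replicates, pooled over the groups.

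Simulated data with 200 changed probe sets served to test these steps. For the averaged cell type difference, 100% of probe sets changed by a log2 value of 1 passed and 46% were called. For Purkinje P14 to P56 these shares were 70% and 40%. They were lower in passing for Stellate/Basket P14 to P35, at 54% and 22%, and for the difference between changes, at 44% and 28%. Alternatives covered the filter on dim probe sets, 1 probe set a gene, the variance model, a block of replicate number, quantile normalization, centring, all 42 columns, a fit of the groups compared alone, Xist level as a covariate, the ages included and leaving out each array in turn. Purkinje P3 to P56, Purkinje P14 to P28 and to P35, and Stellate/Basket P14 to P28 were added after the data were seen.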

Additional observations from a re-analysis of the deposited data

Results flagged for a closer look

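1 of the 12 combinations of HCN probe set and group with 4 arrays held an array far from the others. In Purkinje cells at P56 Hcn3 read 7.56 in replicate 2 and between 6.73 and 6.78 in the other 3 arrays, so the gap took 0.941 of the range, above Dixon's critical value of 0.829 for 4 samples. Chance flags about 1 group in 20. The same array had a Purkinje marker mean of 12.9, within the 12.9 to 13.2 of its group, and an array median of 6.03. The other 3 have medians of 5.92, 5.95 and 5.91, the lowest of all 40 arrays, and 90th percentiles of 9.27 to 9.49, against 9.13 in replicate 2. Without it the Hcn3 difference at P56 between Purkinje and Stellate/Basket cells passed (-0.71, limma adjusted p = 0.00672).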

How the results depend on the processing

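Of 256 HCN results recomputed under settings other than leaving out an array, 237 kept their direction and their side of the threshold, 11 no longer passed, 6 came to pass and 2 changed sign. Of 350 with 1 array left out these were 323, 16, 4 and 7. Sign changes concerned Hcn2. Its averaged cell type difference was 0.0355 without P56, and its difference between the changes from P14 to P35 was 0.0052 with centring. With 1 array left out it ran from -0.137 to 0.0441 at P21, from -0.0280 to 0.0288 at P28, from -0.10 to 0.50 for Stellate/Basket P14 to P56 and from -0.0888 to 0.0171 for the difference between changes. The cause was not tested. Centring moved the median of all probe sets from -0.09 to 0.06 at P56 and from -0.06 to 0.06 for Purkinje P14 to P56.

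Same-numbered arrays did not deviate together when pooled over ages and cell types (mean r of -0.01 over 191 pairs). For arrays with different numbers the mean r was 0.0036 over 539 pairs. Same-numbered Purkinje and Stellate/Basket arrays of the same age were not examined separately. Whether the numbers pair those samples therefore cannot be told from these means. A replicate block brought Hcn3 at P56 past the threshold (-0.56, adjusted p = 0.0401). So did quantile normalization (-0.68, adjusted p = 0.0358). All 42 columns did so too (adjusted p = 0.0246), but the added P56 column is the mean of the other Stellate/Basket P56 arrays and no new sample. Hcn3 also came to pass at P14 and for Stellate/Basket P14 to P35, as given with those results.

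With 1 probe set a gene, fewer features were tested and fewer called. Cell type differences gave 2009 averaged against 3384 in the main analysis, 2327 for P14 (3969), 2355 for P21 (4020), 2884 for P28 (4992), 1985 for P35 (3241) and 3599 for P56 (6055). Changes gave 2228 for Purkinje P7 to P14 (3698), 296 for Purkinje P14 to P56 (578), 966 for Stellate/Basket P14 to P35 (1702) and 3275 for P14 to P56 (5493). The F tests gave 4512 in Purkinje (8022) and 4185 in Stellate/Basket cells (7043). Without P3 and P7 the Purkinje F test called 2169, and without P56 the Stellate/Basket F test called 2482. The fit of the P56 groups alone called 3571. The difference between changes called 1135 with all 42 columns (676), where a mean of the other Stellate/Basket P35 arrays counts as an array. With 1 array left out, the counts ran from 340 to 878 for Purkinje P14 to P56, lowest without Purkinje P14 replicate 3 and highest without Purkinje P56 replicate 2. They ran from 968 to 1907 for Stellate/Basket P14 to P35 and from 339 to 1046 for the difference between changes, both lowest without Stellate/Basket P35 replicate 1.

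Each gene rests on 1 probe set, the Stellate/Basket groups at P35 and P56 on 2 arrays each, and no background level comes with the values.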
